A study of Caenorhabditis elegans with 2 samples.

Results

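The regions described here are those that chromatin immunoprecipitation with sequencing (ChIP-seq) for the worm Snail factor SNAI-1 ranked high in 1 biological replicate and low or not at all in the other. They were chosen by the caller's signal: each was among the 1000 strongest candidate regions of its own replicate and overlapped, by as little as 1 bp, none of the 5000 strongest of the other. The rule kept 281 regions of replicate 1 (28.1% of its 1000) and 286 of replicate 2 (28.6%), together 567 of 60000 candidates. The remaining 719 and 714 regions of the 1000 are called found in both. Many of these are the same site counted once in each list, so the kinds are compared within a replicate.

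The chromatin came from late embryos of Caenorhabditis elegans strain OP698, with the genotype unc-119(tm4063) III; wgIs698, in which a transgene makes K02D7.2 (SNAI-1) with a C-terminal GFP-FLAG tag. Embryos of mixed sex were taken 5 hours after synchronization by bleaching, their chromatin was sonicated, and an antibody against GFP was used. Both replicates belong to this 1 group, so all samples share the mutation, the transgene and the antibody, and no untagged or untreated group was analysed here. One label calls the tag eGFP, and another gives K02D7.2 as the antibody. The labels name no promoter for the transgene. Whole embryos were used, so the signal is an average over all cell types.

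Snail factors are zinc-finger repressors that bind E-box sequences, typically CAGGTG and its reverse complement CACCTG, and are known across animals for roles in cell fate, neuroblast division and cell movement. ChIP-seq lists the places where chromatin recovered with an antibody gives more reads than a control. tRNA genes are transcribed by RNA polymerase III from internal promoter elements, the A box and the B box, whose core includes GTTCGA.

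The summit sequences below show what the strongest regions of either kind look like. Each runs from 50 bases before the summit to 50 bases after it, on the plus strand of ce11 (RefSeq sequence), read 5′ to 3′. Capitals mark 6 hexamers searched on both strands. These are the B-box core GTTCGA, the hexamer ACCACT of many tRNA genes, the GC-rich CGCGCC, the E-box CACTTG, the Snail-type E-box CAGGTG and the repeat GAGAGA. The first 3 are the strongest one-replicate regions of replicate 1 outside UTR exons: at the tRNA-Trp gene sup-7 (chrX:6371336-6371436), at the tRNA-Val gene F59C12.t3, which lies on the minus strand (chrX:16590949-16591049), and in a masked repeat (chrV:5284751-5284851). The next 3 are those of replicate 2, in introns of rsp-8 (chrIII:11829646-11829746), aakg-1 (chrIII:12549545-12549645) and nft-1 (chrIII:11924177-11924277). The last 2 are the strongest regions found in both, at the snoRNA gene W03C9.9 (chrII:11960782-11960882) and at snoRNA genes in an intron of frm-7 (chrV:12303591-12303691).
sup-7, replicate 1: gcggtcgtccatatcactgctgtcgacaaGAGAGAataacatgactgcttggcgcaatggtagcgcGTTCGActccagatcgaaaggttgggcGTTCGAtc
F59C12.t3, replicate 1: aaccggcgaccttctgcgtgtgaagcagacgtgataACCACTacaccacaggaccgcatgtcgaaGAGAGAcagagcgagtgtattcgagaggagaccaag
repeat on V, replicate 1: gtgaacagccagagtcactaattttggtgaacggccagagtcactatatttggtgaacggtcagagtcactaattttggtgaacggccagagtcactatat
rsp-8, replicate 2: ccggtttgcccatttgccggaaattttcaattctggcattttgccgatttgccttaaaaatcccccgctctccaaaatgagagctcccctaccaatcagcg
aakg-1, replicate 2: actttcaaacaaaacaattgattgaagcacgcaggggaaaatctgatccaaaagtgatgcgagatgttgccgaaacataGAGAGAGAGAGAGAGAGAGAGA
nft-1, replicate 2: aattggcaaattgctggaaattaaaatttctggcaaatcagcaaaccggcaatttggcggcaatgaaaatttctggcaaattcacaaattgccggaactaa
W03C9.9, found in both: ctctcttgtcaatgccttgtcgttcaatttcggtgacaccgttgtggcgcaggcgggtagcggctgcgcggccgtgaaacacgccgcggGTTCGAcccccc
frm-7, found in both: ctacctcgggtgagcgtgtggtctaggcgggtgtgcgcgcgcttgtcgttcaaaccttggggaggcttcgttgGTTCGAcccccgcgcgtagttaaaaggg

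The aakg-1 window ends in a run of GA, and the window on V is built of a short unit repeated in tandem. The rsp-8 and nft-1 windows hold none of the 6 hexamers. None of these 8 windows holds CAGGTG. For comparison, 4 one-replicate windows that do hold it follow, the strongest 2 of each replicate, chosen after the values were seen. They lie in coding exons of K08D12.3 (chrIV:1710531-1710631) and Y43D4A.5 (chrIV:16778596-16778696) in replicate 1, and in a coding exon of srw-85 (chrV:19430811-19430911) and an intron of atg-2 (chrX:6808843-6808943) in replicate 2.
K08D12.3, replicate 1: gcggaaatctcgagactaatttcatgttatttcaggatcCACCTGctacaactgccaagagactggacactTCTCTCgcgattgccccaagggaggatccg
Y43D4A.5, replicate 1: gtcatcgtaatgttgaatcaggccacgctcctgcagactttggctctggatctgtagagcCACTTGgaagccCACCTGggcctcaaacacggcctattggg
srw-85, replicate 2: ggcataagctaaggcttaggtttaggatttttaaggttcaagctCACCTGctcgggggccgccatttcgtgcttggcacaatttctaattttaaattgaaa
atg-2, replicate 2: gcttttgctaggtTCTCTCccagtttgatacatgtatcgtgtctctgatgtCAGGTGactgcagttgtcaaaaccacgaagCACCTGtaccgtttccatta

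Among the 1000 strongest regions of their own list, the one-replicate regions stood mostly in the weaker part. Their median rank was 716 in replicate 1 and 699.5 in replicate 2. At ranks 501 to 1000 stood 225 of 281 and 216 of 286. The strongest stood at rank 191 in replicate 1 and at rank 202 in replicate 2, so every region above those ranks was found in both. Their signal ran from 54.7 to 95.5 in replicate 1 (median 59.9, n = 281) and from 48.7 to 81.2 in replicate 2 (median 53.2, n = 286). Signal has no stated scale and is comparable within a list, so it was also divided by the median of all 30000 candidates of the same list. On that scale the one-replicate regions had medians of 2.19 and 2.21, against 2.66 and 2.62 for regions found in both. These values were used by the rule and are given as a description.

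In the other replicate most of these places had a weak candidate. No candidate overlapped 70 of the 281 regions of replicate 1 (24.9%) and 64 of the 286 of replicate 2 (22.4%). A candidate at rank 5001 to 10000 overlapped 90 and 103, one at rank 10001 to 20000 overlapped 88 and 85, and one at rank 20001 to 30000 overlapped 33 and 34. Where there was a counterpart, its signal had a median of 1.10 and 1.12 times its list's median, close to an average candidate. The counterpart of a region found in both had a median of 2.49 times in either direction. The rule excluded stronger counterparts from one-replicate regions and required them for regions found in both. This contrast in counterpart signal is therefore set by the rule and is given as a description. The summits of region and counterpart lay a mean of 130 bp (SD 114, 211 pairs) and 134 bp (SD 122, 222 pairs) apart for one-replicate regions, against 69.1 and 63.3 bp for regions found in both. The deposited −log10 q had a median of 1.37 and 1.31 at the one-replicate regions and of 0.124 and 0.126 at their counterparts. The rule took regions from the top of their own list and left only counterparts lower in the other. Nothing is therefore read from this difference in q.

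**Figure D1:**
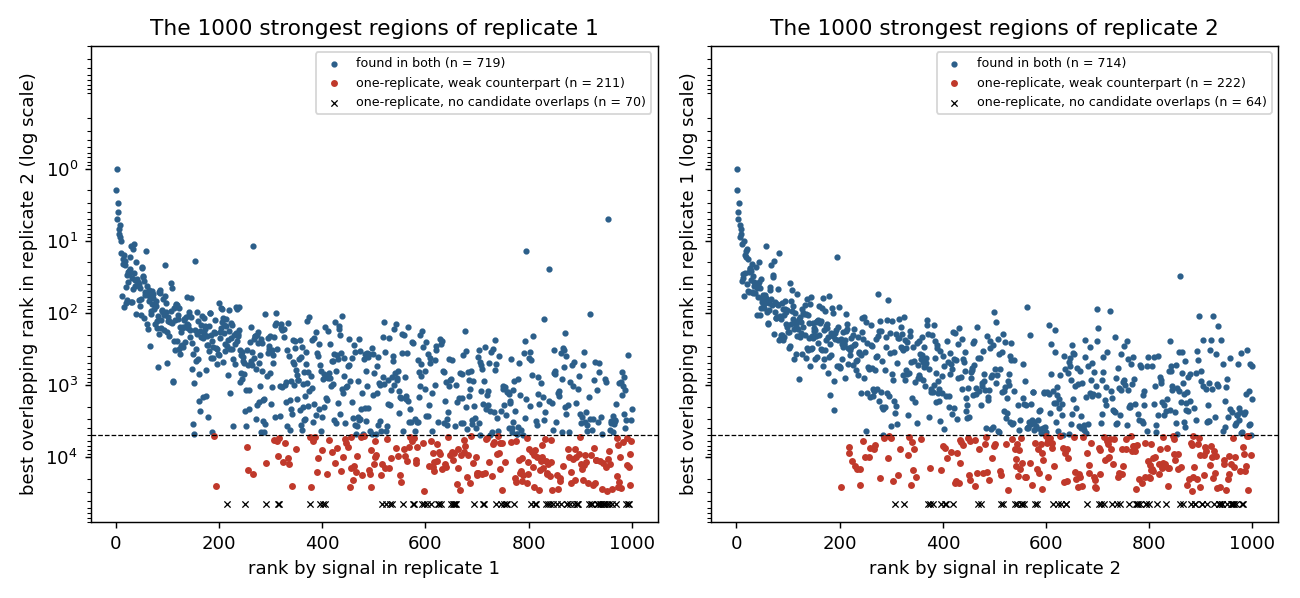
Each point is 1 of the 1000 strongest regions of a replicate, placed by its rank there (x axis) and by the best rank of an overlapping region in the other replicate (y axis, log scale, best ranks at the top). The dashed line is rank 5000, and crosses, drawn at a fixed height below the axis range of ranks, are the 70 and 64 regions that no candidate overlapped. The points cross the line without a gap, and the one-replicate regions start at ranks 191 and 202.

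No gap separated the regions on either side of the thresholds. In replicate 1 the 3 regions just inside had best counterparts at ranks 5075, 5086 and 5115, and the 3 just outside at ranks 4995, 4968 and 4878. In replicate 2 the ranks were 5072, 5094 and 5127 inside and 4962, 4898 and 4875 outside. At the lower end of the own list, the last region kept in replicate 1 had a signal of 54.65 and the first that missed rank 1000 had 54.60. In replicate 2 these signals were 48.74 and 48.73.

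In the list that the authors pooled from both replicates, the one-replicate regions stood lower than the regions found in both. All 281 regions of replicate 1 and 285 of 286 of replicate 2 overlapped a pooled candidate, at a median pooled rank of 1662 and 2116, against 350 and 361 for regions found in both. An IDR peak (a peak that passed the authors' filter on the irreproducible discovery rate) overlapped 3 one-replicate regions of replicate 1 (1.07%, exact binomial 95% interval 0.221 to 3.09%) and 3 of replicate 2 (1.05%, 0.217 to 3.03%). Among all candidates the share was 2.23% in replicate 1 and 2.21% in replicate 2, and among regions found in both it was 65.8% and 63.6%. The pooled list is made from both replicates, and the rule picks regions that are weak in 1 of them. The IDR peaks were also made from both replicates, and how the filter used each list is not stated. Nothing is therefore read from the differences in pooled rank or in IDR share. The binomial intervals here and below treat regions as independent and cover counting error only. With 1 group of 2 replicates no test over samples was possible, and the regions of 1 library are not replicates, so the shares are descriptions.

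The 6 regions under an IDR peak were close to the top of the one-replicate regions. In replicate 1 they were sup-7 (signal 95.5, pooled rank 355), F59C12.t3 (91.3, pooled rank 390) and a region on X at chrX:1644143-1644598 (78.5, pooled rank 491) of which 90.6% was masked as repeat. In replicate 2 they were the aakg-1 intron (78.9, pooled rank 494), the promoter windows of szy-20 and C18E9.5 (77.7, pooled rank 465) and those of ekl-4 and rps-20 (76.3, pooled rank 490). aakg-1 encodes a gamma subunit of AMP-activated kinase, szy-20 a regulator of centrosome size, and rps-20 a protein of the small ribosomal subunit.

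Genes for small structural RNAs, which lie at many of the regions found in both, were few among the one-replicate regions. A tRNA, snoRNA or snRNA gene lay within 100 bp of the summit in 11 of 281 regions of replicate 1 (3.91%, 95% interval 1.97 to 6.90%) and in 9 of 286 of replicate 2 (3.15%, 1.45 to 5.89%). Among regions found in both it was 189 of 719 (26.3%, 23.1 to 29.7%) and 206 of 714 (28.9%, 25.6 to 32.3%). Among all candidates it was 1.44% and 1.49%. Of the 20 genes at one-replicate regions 18 encode tRNAs, and there was 1 snoRNA gene and 1 snRNA gene.

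Stronger regions lay at such genes more often, so the share was also set out by own rank. At own ranks 501 to 1000, a range chosen after the values were seen, a small RNA gene lay at 6 of 225 one-replicate regions of replicate 1 (2.67%, 0.985 to 5.71%) and at 32 of 275 found in both (11.6%, 8.10 to 16%). In replicate 2 the counts were 4 of 216 (1.85%, 0.507 to 4.67%) and 34 of 284 (12%, 8.44 to 16.3%). The difference was thus smaller among regions of similar rank, and it had the same direction in both replicates. At ranks 1 to 250, where replicate 1 had only 3 one-replicate regions, 2 of those 3 were at tRNA genes.

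**Figure D2:**
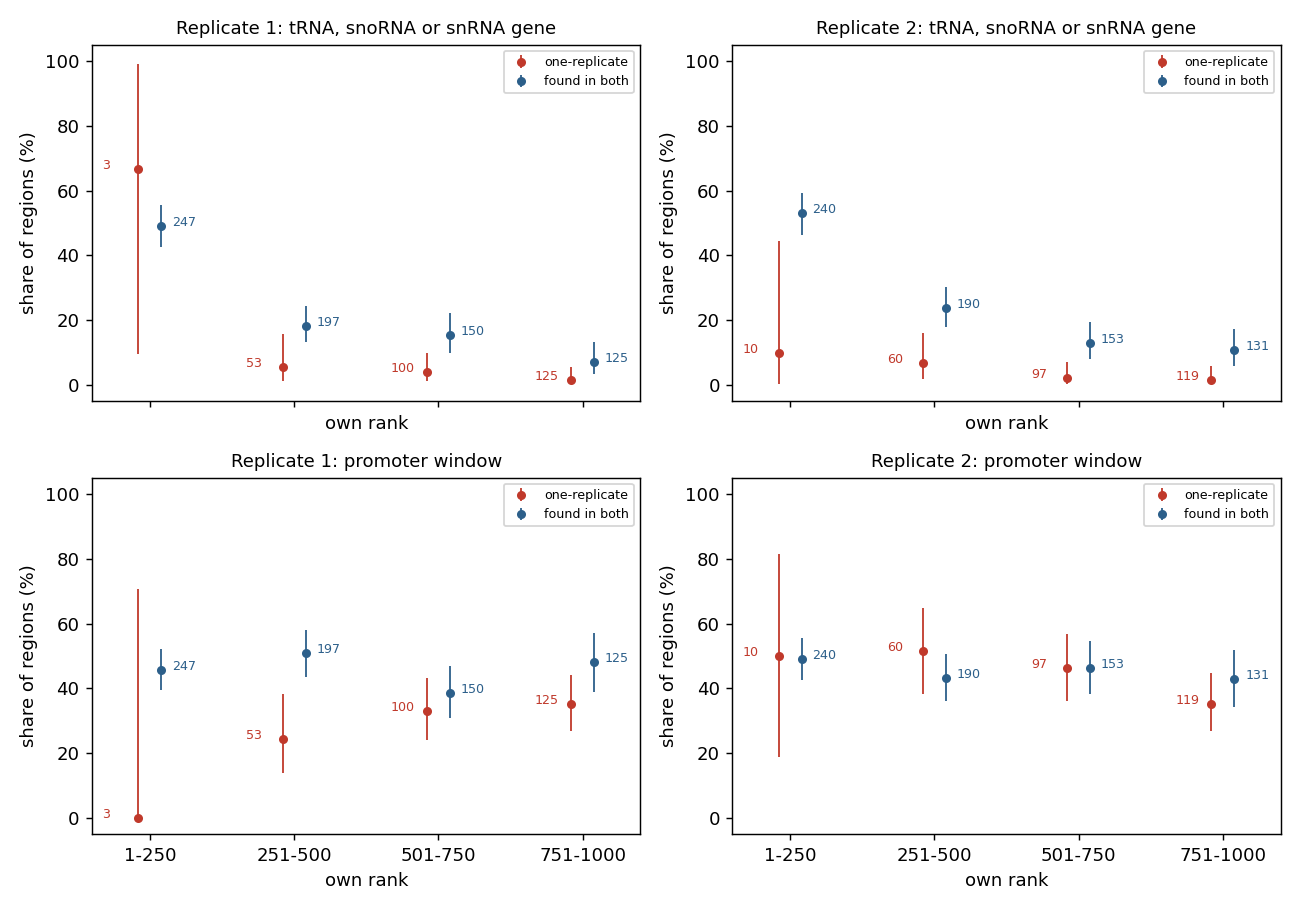
Share of regions (y axis, %) at a tRNA, snoRNA or snRNA gene (upper panels) and in a promoter window (lower panels) in 4 bands of 250 own ranks (x axis), for one-replicate regions (red) and regions found in both (blue). Bars are exact 95% binomial intervals and the numbers beside the points are regions per band. The small RNA share of regions found in both falls from 49.0% and 52.9% in the first band to 7.20% and 10.7% in the last, and the one-replicate share in the last band is 1.60% and 1.68%.

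The tRNA genes at one-replicate regions were of many isotypes. All 18 could be matched to RefSeq by their coordinates. The strongest was sup-7, a tRNA-Trp gene known in worm genetics for its amber suppressor alleles, which lies in an intron of C03B1.2 on X. Its signal was 95.5 in replicate 1, and the best overlapping candidate of replicate 2 had a signal of 33.2 and rank 5116, close to the rank limit. F59C12.t3, a tRNA-Val gene, had a signal of 91.3 in replicate 1 with no candidate in replicate 2. In replicate 2 the strongest was the tRNA-Ile gene C02D4.t1 in an intron of ser-2, a tyramine receptor gene, with a signal of 75.5 against rank 24424 in replicate 1. The tRNA-Glu gene rte-4 followed with a signal of 61.2 and rank 12185 in replicate 1.

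The summit of sup-7 lay 8 bp, and that of C02D4.t1 1 bp, inside the 5′ end of the gene. The other tRNA genes of replicate 1 were ZC449.t1 (tRNA-His), C40C9.t1 and F14F7.t1 (tRNA-Thr), Y70C5A.t1 (tRNA-Lys), ZC412.t1 (tRNA-Phe), K01A12.t2 (tRNA-Cys), Y105C5B.t1 (tRNA-Asp) and ZK783.t1 (tRNA-Glu). Those of replicate 2 were F12D9.t3 and T25E4.t1 (tRNA-Val), F02E11.t1 (tRNA-Ser), K04A8.t3 (tRNA-Cys), C14F11.t1 (tRNA-Arg) and T09B4.t1 (tRNA-Ile). Not every summit lay inside its tRNA gene. It lay past the 3′ end at ZC449.t1, ZK783.t1, F14F7.t1, F12D9.t3 and T09B4.t1, and upstream of the 5′ end at F02E11.t1 and C14F11.t1. Some tRNA genes have near-identical copies between which reads could be divided. The 31 bases at the summit occurred 23 times in the genome at rte-4, 14 times at Y70C5A.t1 and at Y105C5B.t1, and 13 times at ZC412.t1. They occurred once at sup-7, F59C12.t3 and C02D4.t1. The labels and file headers do not say how reads with several matches were placed.

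The remaining small RNA classes held single regions. The snoRNA gene W06H8.17 lay at a region of replicate 2 with a signal of 61.4 (rank 8801 in replicate 1). The snRNA class held sls-2.8, a gene for the spliced leader SL2 that is trans-spliced to genes within operons, with a signal of 68.6 in replicate 1 and rank 5339 in replicate 2. The miRNA gene cel-mir-8192, in an intron of flcn-1, had a signal of 60.1 in replicate 1 and rank 17113 in replicate 2. One region of replicate 2 lay at a piRNA gene, and 0 regions of either replicate lay at an rRNA gene. Genes annotated as other ncRNA lay at 34 regions of replicate 1 (12.1%, 8.53 to 16.5%) and 28 of replicate 2 (9.79%, 6.60 to 13.8%), against 23.4% and 25.6% of regions found in both and 4.93% and 4.81% of candidates. At own ranks 501 to 1000 these shares were 10.7% and 10.2% for one-replicate regions and 13.8% and 16.2% for regions found in both.

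The share of one-replicate regions at promoters was lower in replicate 1 than in replicate 2, with intervals that overlap slightly. A summit lay between 1000 bp upstream and 200 bp downstream of a protein-coding transcript start in 90 of 281 regions of replicate 1 (32.0%, 26.6 to 37.8%) and in 123 of 286 of replicate 2 (43.0%, 37.2 to 49.0%). The regions found in both had 46.0% and 45.8%, and all candidates 30.6% and 30.8%. The one-replicate regions of replicate 1 were therefore close to an average candidate, and those of replicate 2 close to the regions found in both. At own ranks 501 to 1000 the one-replicate shares were 34.2% and 40.3%, also with intervals that overlap. Windows of 2 or more genes held the summit in 11 regions of replicate 1 (3.91%) and 28 of replicate 2 (9.79%). Regions found in both had 13.6% and 13.9%, and all candidates 4% and 4.23%, so replicate 1 was close to the candidates.

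Within genes, coding exons were more frequent than at regions found in both. A coding exon held the summit in 33 regions of each replicate, which is 11.7% (8.22 to 16.1%) in replicate 1 and 11.5% (8.08 to 15.8%) in replicate 2. Regions found in both had 5.29% (3.77 to 7.18%) and 4.20% (2.85 to 5.94%), and all candidates 18.9% in both lists. At own ranks 501 to 1000 the one-replicate shares were 11.6% and 12.5% and the others 8.36% and 7.75%, with overlapping intervals. UTR exons held 27 and 24 summits (9.61% and 8.39%), against 4.31% and 4.62% of regions found in both and 6.13% and 5.86% of candidates. Introns held 35.9% and 33.9% of summits, much like the 34.9% and 36.7% found in both. Summits outside coding genes made up 42.7% and 46.2%, against 55.5% and 54.5% found in both and 37.7% and 37.8% of candidates. Among own ranks 501 to 1000 they made up 43.6% and 46.3%, against 48% and 47.9% found in both.

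**Figure D3:**
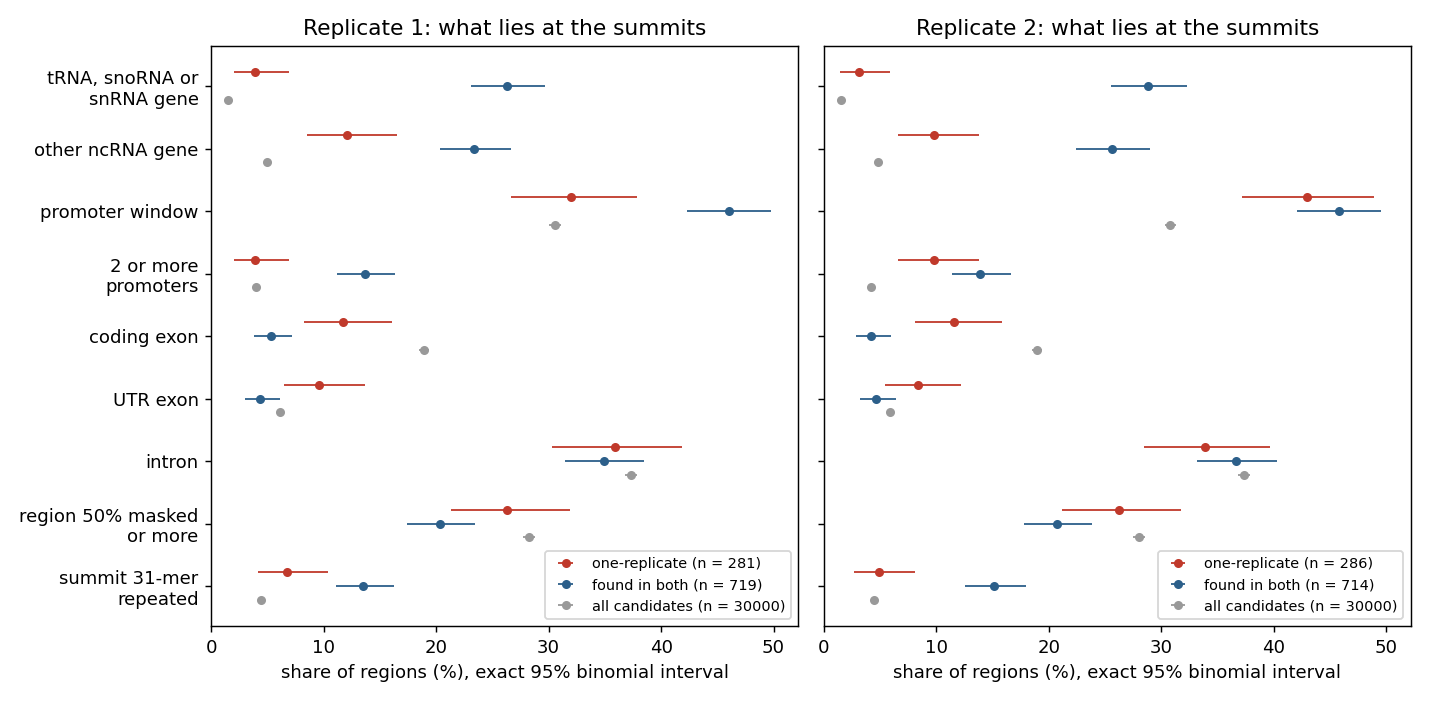
Share of regions (x axis, %) in each class of annotation or sequence (y axis) for one-replicate regions (red), regions found in both (blue) and all 30000 candidates of the list (grey). Bars are exact 95% binomial intervals. In both panels the red point is far below the blue one for tRNA, snoRNA and snRNA genes, and above it for coding and UTR exons, while introns overlap.

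Among the strongest regions, those of replicate 1 lay mostly in gene bodies or between genes. After sup-7 came the UTR exon of egl-13, a SOX-family transcription factor gene (signal 94.6, rank 25040 in replicate 2). The region on V at chrV:5284573-5285028 had a signal of 86.1 and no candidate in replicate 2. It was 86.4% masked, and the 31 bases at its summit occurred 14 times in the genome. A coding exon of gbf-1, which encodes an exchange factor for ARF GTPases at the Golgi, had a signal of 84.9 (rank 7229 in replicate 2). Its best pooled rank was 6100, far below that of its neighbours in strength. gbf-1 held 5 one-replicate regions of replicate 1, with signals from 57.1 to 84.9, some of which overlap and share a counterpart, so that they are not separate sites.

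Introns of ZK1010.4 (84.9), nurf-1 (83.5), Y43F4A.1 (80.6) and R05D7.2 (79.0) were also among the 12 strongest of replicate 1. nurf-1 encodes a subunit of a nucleosome remodelling complex, and its counterpart in replicate 2 stood at rank 16950. Regions outside coding genes at chrI:10235072-10235527 (80.6) and chrIII:11454709-11455164 (78.4) had no candidate in replicate 2. The region at chrX:1644143-1644598 completed the 12. Only the ZK1010.4 region lay in a promoter window.

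In replicate 2 more of the 12 strongest lay at gene starts. The strongest was in an intron of rsp-8, a gene of the SR family of splicing factors, 259 bp upstream of a transcript start (signal 81.2, rank 26089 in replicate 1). An intron of nft-1, which encodes a fusion of nitrilase and a histidine triad protein, had 78.9 (rank 8667), and 95.3% of that region was masked. The start of C37A2.8 (76.8, rank 13121) and the UTR exon of F53C3.6 (73.9, rank 10024) lay in promoter windows, as did szy-20 and ekl-4. A coding exon of pks-1, a polyketide synthase gene, had 75.4 (rank 14483). Introns of ser-2, twk-39 (a potassium channel gene, 74.6), cpl-1 (a cathepsin protease gene, 74.2, within the promoter window of srh-269) and Y38F2AR.10 (73.6) made up the rest with aakg-1.

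Other strong regions in coding exons belonged to F56A8.3 (70.5) and lelo-2 (69.5) in replicate 1 and to Y56A3A.7 (70.4) in replicate 2. The Hox gene nob-1 had a region 725 bp upstream of its start in replicate 2 (72.8, rank 7793 in replicate 1). The polyubiquitin gene ubq-1 had one 2 bp downstream of a start in replicate 1 (72.5, rank 16098 in replicate 2).

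The genes with a one-replicate region in their promoter window were almost entirely different in the 2 replicates. There were 99 in replicate 1 and 151 in replicate 2, and 1 gene was in both sets, so that the sets hold 249 genes. The shared gene was zig-8, which encodes a protein with immunoglobulin domains. Replicate 1 had a region with a signal of 54.7 at 3 bp downstream of a zig-8 start, and replicate 2 one with 71.9 at 881 bp upstream, so the summits were at different places. Regions found in both lay in promoter windows of 555 genes, of which 7 also had a one-replicate region. The rule itself keeps the 2 sets apart at a given place, so the small overlap is not a result.

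Gene families named by symbol had at most 4 members each among these genes. Chaperones and heat shock genes had 4 of 57 annotated: hsp-110 (59.7) and hsp-3 (65.0) in replicate 1, and dnj-19 (55.5) and hsp-6 (57.4) in replicate 2. hsp-3 encodes a chaperone of the endoplasmic reticulum and hsp-6 one of mitochondria. Each of these summits also lay in the window of another gene, rpn-3, C15H9.5, nhr-47 and C37H5.5 in that order. Nuclear hormone receptors had 3 of 269, namely nhr-132 (63.1) and nhr-40 (64.2) in replicate 1 and nhr-47 (55.5) in replicate 2. The nhr-40 window held 2 overlapping regions with the same counterpart. Chemoreceptor genes had 4 of 1163, namely srw-19 (75.6) and srbc-65 (56.1) in replicate 1 and srh-269 (74.2) and srw-85 (62.0) in replicate 2. Regions found in both lay in promoter windows of 9 genes of the chaperone list, 6 nuclear hormone receptor genes and 9 chemoreceptor genes.

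Ribosomal protein genes had 2 of 81, both in replicate 2, against 12 with a region found in both. Splicing factor genes had 2 of 28, and the nuclear pore, the respiratory chain and the helix-loop-helix and homeobox lists had 1 each. These lists go by symbol (hlh- and ceh- for the last), so the last leaves out the Hox gene nob-1. The lists of histones, aminoacyl-tRNA synthetases, translation factors, collagens, F-box and major sperm proteins had 0. For comparison, one-replicate regions lay in promoter windows of 249 of 19865 protein-coding genes, and regions found in both in those of 555. The counts per list are small, so no excess or lack is read from them.

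Of 6 genes looked up by name, 1 had a one-replicate region. The gene snai-1 itself had no one-replicate region, and the best candidate in its promoter window or body stood at rank 3535 in replicate 1 and 20724 in replicate 2. For scrt-1, another zinc-finger gene of the wider Snail group, the ranks were 20930 and 15132, and for hlh-2, the worm E/Daughterless gene, 12746 and 17565. No candidate lay at ces-1, a Snail family gene, or at egl-1, the cell death gene that CES-1 represses. The long gene hmr-1, which encodes the worm cadherin, had 1 one-replicate region, in an intron, with a signal of 56.3 in replicate 1 and rank 12419 in replicate 2. Its strongest candidates, at ranks 613 and 814, were not one-replicate regions.

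By chromosome the one-replicate regions were spread much as the regions found in both, with chromosome III most frequent. Chromosome III held 85 regions of replicate 1 (30.2%, 24.9 to 36.0%) and 79 of replicate 2 (27.6%, 22.5 to 33.2%). The shared regions had 29.8% and 30.7% there, and all candidates 18.7% and 18.2%. Within it, 6 bins of 250 kb between positions 11750001 and 13500000, chosen because each holds 8 or more IDR peaks, took 55 (19.6%, 15.1 to 24.7%) and 42 regions (14.7%, 10.8 to 19.3%). In these bins stood 16.8% and 16.2% of regions found in both and 3.82% and 3.75% of candidates. The bins were picked by IDR peaks of these same replicates, and most regions found in both overlap such a peak. The share of regions found in both is therefore partly set by the choice of bins. The megabase from 12000001 to 13000000 alone held 30 and 20 one-replicate regions, more than any other megabase of the genome in either replicate. It also held the most regions found in both (49 and 55) and the most candidates (703 and 693), so this is not particular to the one-replicate regions.

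Among the 6 chromosomes, the replicates differed most on chromosome II, which was singled out after the values were seen. It held 26 one-replicate regions of replicate 1 (9.25%, 6.13 to 13.3%) and 56 of replicate 2 (19.6%, 15.1 to 24.7%), intervals that do not overlap. It held 13.2% and 12.5% of regions found in both and 16.1% and 16.3% of candidates. X held 41 (14.6%, 10.7 to 19.3%) and 35 (12.2%, 8.67 to 16.6%), against 17.7% and 17.4% of regions found in both and 14.88% and 15.03% of candidates. Chromosome I held 52 and 47, IV 38 and 26, and V 39 and 43.

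**Figure D4:**
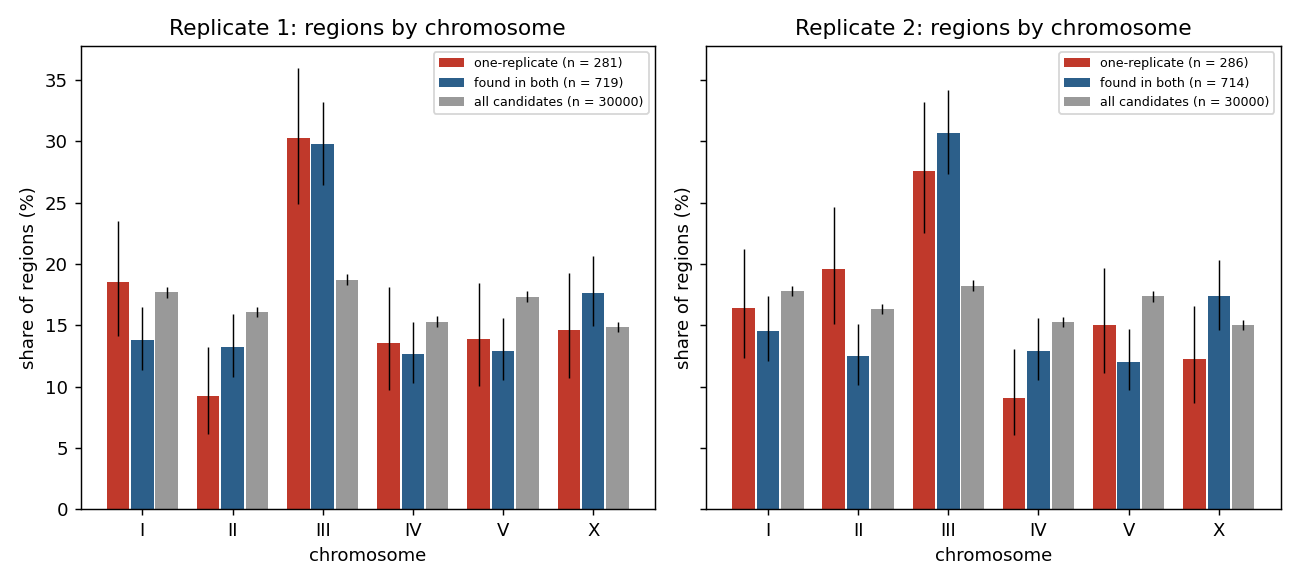
Share of regions (y axis, %) on each of the 6 chromosomes (x axis) for one-replicate regions (red), regions found in both (blue) and all candidates (grey), with exact 95% binomial intervals. Chromosome III is the tallest group in red and blue in both panels, and chromosome II holds 9.25% of the red regions of replicate 1 and 19.6% of those of replicate 2.

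In GC content the one-replicate regions stood between all candidates and the regions found in both. Mean GC content of the same summit windows was 41.6% ± 9.79 (SD over 281 regions) in replicate 1 and 43.1% ± 10.01 (286 regions) in replicate 2. Regions found in both had 46.1% ± 9.66 and 46.5% ± 9.55, and candidates a mean of 38.2% in both lists. Away from tRNA, snoRNA and snRNA genes the means were 41.4% and 43.0%, against 44.6% and 45.0% found in both. At least 50% of the region was masked as repeat in 26.3% and 26.2%, against 20.3% and 20.7% found in both and 28.3% and 28.0% of candidates. At own ranks 501 to 1000 the masked shares were 24% and 27.8%, against 22.2% and 28.2% found in both. The order was thus the opposite in replicate 2 at those ranks. The 31 bases at the summit occurred more than once in the genome in 6.76% and 4.90%, against 13.5% and 15.1% found in both and 4.45% and 4.42% of candidates. At own ranks 501 to 1000 they did so in 6.22% and 5.56%, against 8.36% and 10.6% found in both, with overlapping intervals.

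The B-box core GTTCGA was in 10 one-replicate windows of each replicate (3.56%, 1.72 to 6.45%, and 3.50%, 1.69 to 6.34%), against 14.0% and 13.9% found in both and 3.68% and 3.71% of candidates. Among own ranks 501 to 1000 it was in 4% (1.85 to 7.46%) and 2.31% (0.756 to 5.32%), against 6.55% (3.93 to 10.1%) and 5.63% (3.25 to 8.99%) found in both, with overlapping intervals. ACCACT, which can be part of an A box on the opposite strand, was in 4.63% and 3.85%, against 11.5% and 12.5% found in both and 3.34% and 3.68% of candidates. At those ranks ACCACT was in 4% and 3.70%, against 5.45% and 7.04%. The GC-rich hexamer CGCGCC was in 2.85% and 4.20%, against 8.48% and 7.28% found in both and 2.60% and 2.61% of candidates. At those ranks it was in 1.33% and 5.09%, against 7.64% and 4.93%, so the order was the opposite in replicate 2. GAGAGA was in 11.0% and 11.2%, against 11.4% and 12% found in both and 7.06% and 7.12% of candidates.

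The Snail-type E-box CAGGTG, shown in the windows of K08D12.3, Y43D4A.5, srw-85 and atg-2, was in 10 one-replicate windows of replicate 1 (3.56%, 1.72 to 6.45%) and 10 of replicate 2 (3.50%, 1.69 to 6.34%). Regions found in both had 9 (1.25%, 0.574 to 2.36%) and 15 (2.10%, 1.18 to 3.44%), and candidates 2.75% and 2.62%. The intervals of both kinds overlap in either replicate, which does not show that the shares are equal. At own ranks 501 to 1000 CAGGTG was in 4% (1.85 to 7.46%) and 4.17% (1.92 to 7.76%) of one-replicate windows. Regions found in both had 1.09% (0.226 to 3.15%) and 2.11% (0.779 to 4.54%) at those ranks. The direction was the same in both replicates, again with overlapping intervals. CACTTG, another E-box, was in 2.85% and 4.55%, against 5.70% and 7% found in both and 3.79% and 3.97% of candidates. A match of 6 letters is a description and not a binding site.

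**Figure D5:**
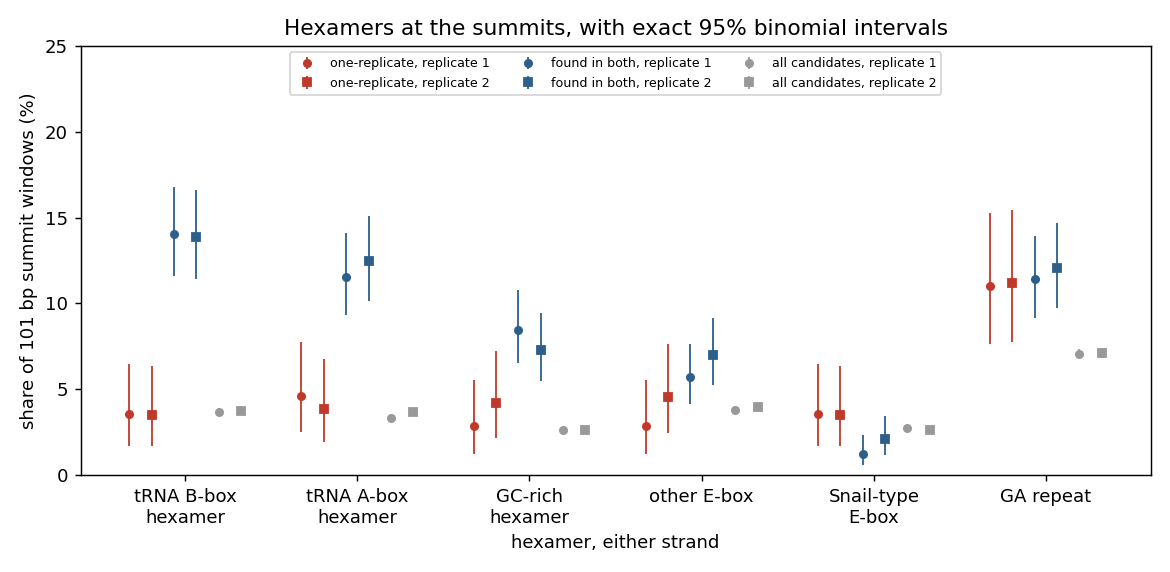
Share of summit windows (y axis, %) that hold each of 6 hexamers on either strand (x axis), for one-replicate regions (red), regions found in both (blue) and all candidates (grey), with circles for replicate 1, squares for replicate 2 and exact 95% binomial intervals. The tRNA B-box hexamer is at 3.56% and 3.50% of one-replicate windows and at 14.0% and 13.9% of those found in both. The Snail-type E-box is at 3.56% and 3.50%, against 1.25% and 2.10%, with overlapping intervals.

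The rule removed regions that overlap one of the 5000 strongest of the other list, so it limits how many summits lie close to these. The distances were not counted for regions found in both or for all candidates, and the counts are given as a description. The summit lay within 1000 bp of one of the 1000 strongest of the other list in 9 regions of replicate 1 (3.20%) and 14 of replicate 2 (4.90%). Within 2000 bp of one of its 5000 strongest lay 104 (37.0%) and 108 (37.8%). Of all 567, 0 overlapped a region of its own list that was found in both. Within a list, 10 one-replicate regions of replicate 1 and 2 of replicate 2 had another one-replicate summit within 500 bp, so a few sites are counted more than once.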

How the data were processed

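Regions came from lists in narrowPeak format that the authors deposited for 2 biological replicates of 1 group on ce11 and ce10, with 30000 candidate regions per replicate, 30000 in a pooled list and 495 IDR peaks on ce11. Manifests deposited with them name an alignment of that replicate and a control alignment as the source of its list; the control was not analysed here. The sources used here give no caller, aligner, version, IDR threshold or number of reads, so depth is unknown. Values used were the caller's signal, on an unstated scale, the deposited −log10 q, and the summit offset, a score the authors' format counts from 0.

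Ranks were by signal. Positions were annotated with Ensembl release 115 for WBcel235 (the coordinates of ce11) and sequence came from RefSeq, whose lower case marks masked repeats. No region ran past a chromosome end. Printed coordinates count from 1. Shares have exact (Clopper-Pearson) 95% intervals (Python 3.11.15, scipy 1.17.1, numpy 2.4.6). The selection was tested on simulated lists.

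Members and lists were chosen with earlier results of these data known. Named were the 12 strongest regions per replicate, up to 4 per annotation class or gene list (lists under 3 as counts), those at each threshold and 6 genes looked up. The remaining tRNA genes, ubq-1, nob-1 and others beyond these were chosen after their values were seen. Alternatives changed the build, list lengths, overlap rule, ranking, replicate and windows.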

Additional observations from a re-analysis of the deposited data

How the results depend on the processing

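Ranking by q and matching by summits within 500 bp moved no share or mean by as much as the SD between the 2 replicates and neither count by over 1.5 times. The same held for the ce10 lists, run only for the 2 counts and the shares on III and X. The counts of one-replicate regions in replicates 1 and 2 were 56 and 70 when the 500 strongest regions were taken and 904 and 929 with the 2000 strongest, as the length of the list sets them. They were 70 and 64 when any candidate of the other list counted as a match, and replicate 2 had 183 when its 10000 strongest did.

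The share at a tRNA, snoRNA or snRNA gene (3.53% in the pooled set of both replicates) was 7.94% with the 500 strongest and 2.56% with the 2000 strongest. It was 4.46%, 2.41% and 1.49% with 2000, 10000 and all regions of the other list, 4.39% with an overlap of 50%, 2.12% with the summit inside the gene, 4.23% within 250 bp, and 2.27% at the weaker 500 ranks (added after the data were seen). The coding exon share (11.6%) was 10.3% and 14.8% with the 500 and 2000 strongest, 10.1% and 15.7% with 2000 and all regions of the other list, 12.1% with an overlap of 50% and 12% at the weaker 500 ranks. The promoter share (37.6%) was 57.3% with a window of 2000 bp upstream to 500 bp downstream and 25.7% with 500 to 100 bp. The share on chromosome III (28.9%) was 34.1% and 24.3% with the 500 and 2000 strongest and 25.9% with 10000 of the other list, and that on X (13.4%) was 15.9% with the 500 strongest and 15.7% with all of the other list. Mean GC (42.4%) moved by less than the replicate spread under every alternative run. Leaving out either replicate could not move a value by that much, because the spread is the SD of those same 2 values. This SD was 0.145 for the coding exon share and 7.76 for the promoter share, so it is an uneven measure. Beyond the alternatives' own construction, the cause was not tested.

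With either replicate left out, the shares ranged from 3.15% to 3.91% at small RNA genes, 32.0% to 43.0% in promoters, 11.5% to 11.7% in coding exons, 27.6% to 30.2% on III and 12.2% to 14.6% on X, and mean GC from 41.6% to 43.1%. No paired analysis was possible because there is 1 group. Depth is unknown, so its effect on these counts was not tested.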

Other observations

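At own ranks 501 to 1000 the contrast on chromosome II was like that of all one-replicate regions: 23 of 225 regions of replicate 1 (10.2%, exact 95% interval 6.59 to 14.9%) and 45 of 216 of replicate 2 (20.8%, 15.6 to 26.9%) lay there. The regions found in both at these ranks had 12.7% and 13.0%. The one-replicate regions at these ranks are most of the full set, so the likeness was largely given in advance and adds no support.

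Among regions whose summit sequence is repeated, 1 stood apart, chosen after its values were seen. The 31 bases at the summit of chrIV:6575895-6576344, outside coding genes, occurred 2406 times in the genome, and the next highest number among the 567 was 71, at chrV:11504783-11505232 in the promoter windows of C55A6.1 and C55A6.10. Both were regions of replicate 2, with signals of 52.9 and 56.0. The first had no candidate in replicate 1, and the second had one at rank 24096.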
